A study of Saccharomyces cerevisiae with 4 samples.

Results

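The 10 budding yeast genes described here encode invertase (SUC2), the kinases that phosphorylate hexoses (HXK1, HXK2, GLK1 and EMI2), the glucose sensors of the plasma membrane (SNF3 and RGT2), their signalling partner MTH1, and the glucose repressors MIG1 and MIG2. They were chosen by the gene symbol of the platform annotation, which gave 1 probe for each, out of 6226 probes and 5547 named genes. All 10 had a value in both mutants, and 9 had one on each of the 2 wild-type arrays, where SNF3 had none.

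The study compared messenger RNA between yeast strains on 2-colour DNA microarrays, to ask how deletions in Snf2 alter expression. Snf2 is the ATPase of the nucleosome remodeler SWI/SNF, and SnAC is one of its domains. There was 1 sample in each of 4 groups, so no value has a replicate error and none could be tested. All strains grew in YPD, a rich medium that contains glucose, at 25 C, and were harvested at an optical density of 0.8. In the null, Δsnf2 cells of the BY4741 background were set against wild-type BY4741. In the SnAC deletion, cells of the strain PSY3 were set against PSY2, a wild type that carries Snf2-2FLAG, an epitope-tagged Snf2. The sources used here do not say whether PSY3 also carries the tag or whether each mutant was 1 clone. In the remaining samples both channels were labelled with the same wild type, BY4741 in one and Snf2-2FLAG in the other. These self-hybridisations show how far a ratio strays with no difference in genotype.

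Yeast takes up glucose by facilitated diffusion and traps it by phosphorylation. HXK2 is the main kinase of cells growing on glucose, while HXK1 and GLK1 are known to be repressed by it. When glucose is plentiful, Snf3 and Rgt2 signal the breakdown of Mth1, which frees hexose transporter genes from the repressor Rgt1. Mig1 meanwhile silences genes for other sugars, among them SUC2, whose derepression is a long-known case of dependence on SWI/SNF. Here the cells grew in glucose, so the conditions were those in which SUC2 is repressed.

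Every value below is a log2 ratio of the named strain over its wild type, minus the median of its array, unless said to be as deposited. Base 2 is assumed, and folds hold only if it is right. The array medians removed in this way were -0.39 for the SnAC deletion, 0.004 for the null, -0.12 for BY4741 and 0.10 for Snf2-2FLAG, so centring matters mainly for the SnAC deletion. A gene was counted as higher or lower in a mutant if it lay at least 2-fold from the array median and outside the central 99% of features of its own wild-type array. A feature is a gene, with its probes averaged, or a probe without a gene name. That central range ran from -0.49 to 0.43 in BY4741 and from -0.74 to 0.74 in Snf2-2FLAG. Both ranges lie within 2-fold, so at 2-fold this bound excluded no feature and the fold alone decided. SNF2 itself read -2.14 in the null and -0.19 in BY4741, in the direction of its label, and had no value on the other 2 arrays, so the domain deletion was not checked by it. In a bulk culture, a change in every cell cannot be told apart from a larger change in some cells.

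In both mutants GLK1 was the gene of this set that stood farthest from the array median, and it was higher. HXK1 and EMI2 lay above the median in both by less than 2-fold, and MIG2 did so in the null. SUC2, HXK2, MIG1, SNF3 and RGT2 were slightly above the median, and MTH1 was below it. By the 2-fold rule 1 of 10 genes, GLK1, was higher in the null, where 1.26% of 6031 features were, and 0 were lower, where 1.59% were. In the SnAC deletion 1 of 10 was higher, again GLK1, beside 0.866% of 5890 features, and 0 were lower, beside 1.19%. With a 1.5-fold rule 4 were higher in the null, where 4.28% of features were, and 2 (HXK1 and GLK1) in the SnAC deletion, where 1.88% were. These 2 shares are at unlike limits. The upper bound of the Snf2-2FLAG array is 1.68-fold, so it set the limit in the SnAC deletion, while that of BY4741 is 1.35-fold. Over the 10 genes the median was 0.40 for the null and 0.20 for the SnAC deletion, against -0.001 and 0 over all features.

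**Figure D1:**
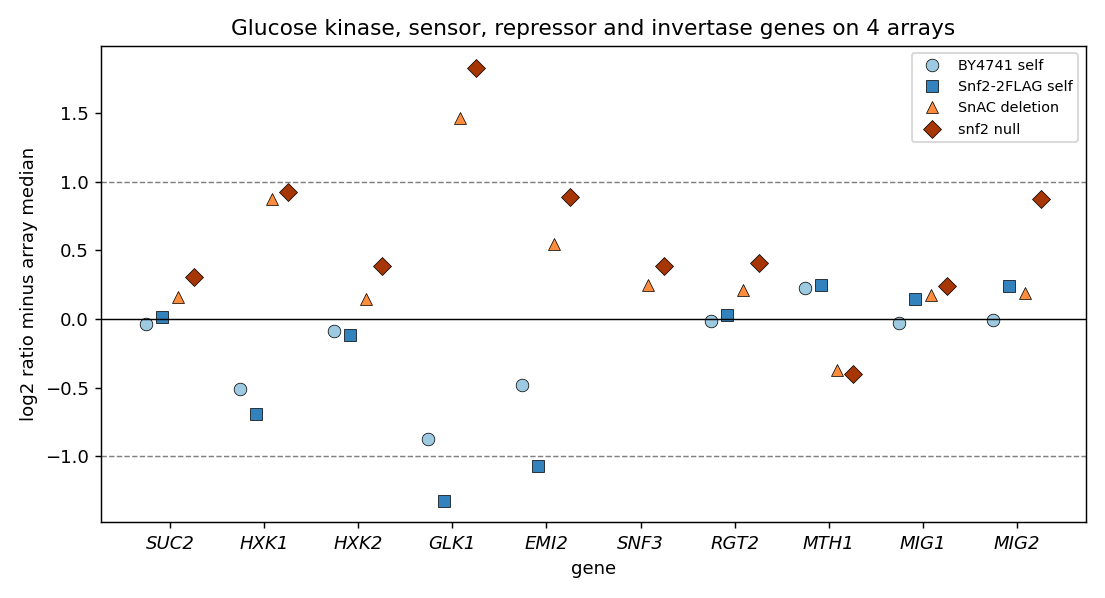
Log2 ratio minus array median (vertical axis) of each of the 10 genes (horizontal axis), with 1 symbol per array and dashed lines at 2-fold; each symbol is 1 sample, so there are no error bars. GLK1 reaches 1.83 in the null and 1.46 without SnAC but lies at -0.88 and -1.32 on the wild-type arrays, while SUC2 stays between -0.03 and 0.31.

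GLK1 (YCL040W) encodes glucokinase, which phosphorylates glucose but not fructose. It read 1.83 in the null, 1.46 in the SnAC deletion, -0.88 for BY4741 and -1.32 for Snf2-2FLAG. The mutants were thus both high and the wild-type arrays both low. Other genes had these signs too, and their share of all features was not counted. GLK1 was 3.55-fold above the median in the null, where 22 of 6031 features were higher, and 2.75-fold above it in the SnAC deletion, where 16 of 5890 were higher. On the wild-type arrays it was near the opposite end, with 4 of 5808 features lower in BY4741 and 4 of 5669 lower in Snf2-2FLAG. Since both channels of those arrays were labelled as the same strain, a displacement of that size arose there without any labelled difference in genotype. The labels do not say whether those channels held 1 RNA or separate cultures, so a technical displacement and a difference between cultures cannot be told apart.

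HXK1 (YFR053C) encodes hexokinase 1, which accepts glucose and fructose. It read 0.92 in the null, 0.87 in the SnAC deletion, -0.51 for BY4741 and -0.69 for Snf2-2FLAG. Its mutant values were nearly equal, 1.89-fold and 1.83-fold above the median, and both wild-type values were low. EMI2 (YDR516C) is the paralog of GLK1, named for early meiotic induction. It read 0.89 in the null, 0.55 in the SnAC deletion, -0.48 for BY4741 and -1.07 for Snf2-2FLAG. EMI2 followed GLK1 in sign on all 4 arrays, and in Snf2-2FLAG it was 2.10-fold below the median.

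HXK2 (YGL253W), the hexokinase that predominates during growth on glucose, differed from its paralog HXK1. Its values were 0.38 in the null, 0.15 in the SnAC deletion, -0.09 for BY4741 and -0.12 for Snf2-2FLAG, all within 1.5-fold. HXK1 minus HXK2 was 0.54 in the null, 0.72 in the SnAC deletion, -0.42 for BY4741 and -0.58 for Snf2-2FLAG, so the order of the pair was opposite on mutant and wild-type arrays. For the other pair, GLK1 exceeded EMI2 by 0.92 in the SnAC deletion, and by 0.94 without Snf2. Paralogs share sequence, so their probes may in part report on each other. This was not tested.

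The kinases therefore lay on opposite sides of the median on wild-type and mutant arrays, HXK2 by little on the wild-type arrays (-0.09 and -0.12). The share of all features with these signs was not counted, so the pattern is not shown to be particular to the kinases. All 4 were below the median on both wild-type arrays, with group medians of -0.49 and -0.88. All 4 were above it in both mutants, with medians of 0.90 (null) and 0.71 (SnAC deletion). As deposited, HXK2 fell on the other side in the SnAC deletion, at -0.25, and the other 3 kept their sign. On the Snf2-2FLAG array 2 of 9 measured genes, GLK1 and EMI2, were lower by at least 2-fold, where 0.212% of features were. On the BY4741 array 0 of 9 were, where 0.0517% of features were, and GLK1 was nearest to that limit.

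**Figure D2:**
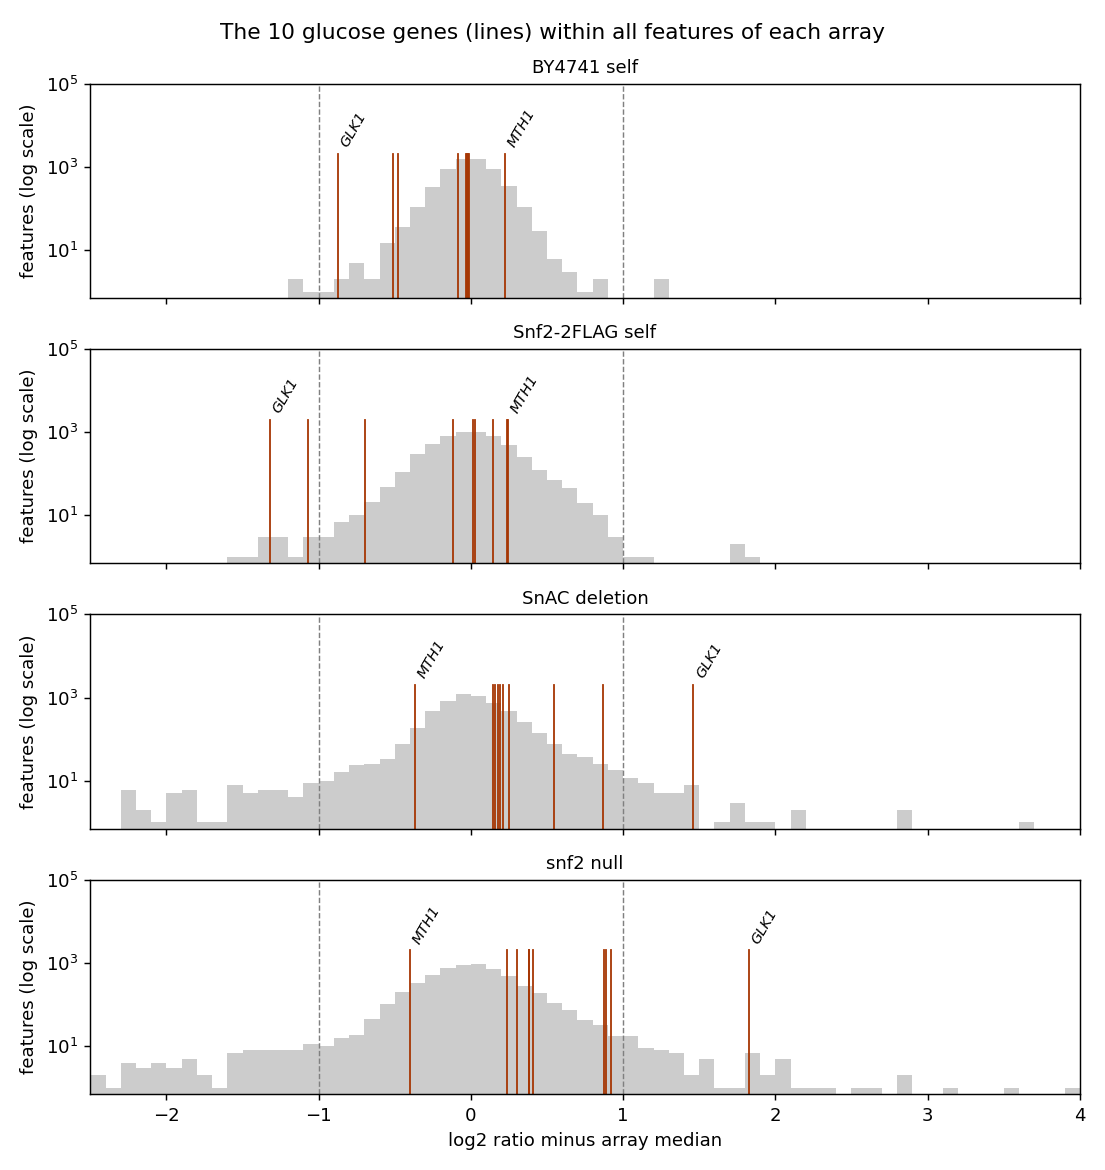
Number of features (vertical axis, log scale) by log2 ratio minus array median (horizontal axis), 1 panel per array, with the 10 genes as lines, GLK1 and MTH1 named, and dashed lines at 2-fold; a few features lie beyond the axis limits. GLK1 moves from the low tail of both wild-type arrays to the high tail of both mutant arrays, and MTH1 moves the other way from 0.22 and 0.25 to -0.37 and -0.40.

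Because each mutant was measured against a wild type whose own array strayed, the centred wild-type array was also subtracted. GLK1 then stood at 2.71 for the null and 2.78 for the SnAC deletion, that is 6.52-fold and 6.88-fold higher. HXK1 stood at 1.43 and 1.56, and EMI2 at 1.36 and 1.61. By this measure 3 of 9 genes were higher in the null, where 1.63% of 5705 features were, and 3 of 9 in the SnAC deletion, where 1.87% of 5443 were. The remaining 6 stayed within 2-fold in both mutants. The subtraction moved GLK1 by more than 1.5 times, so its fold in these data depends on whether the self-hybridisation is taken as a baseline. The null and the BY4741 array share their wild-type strain, as do the SnAC deletion and the Snf2-2FLAG array, and the sources used here do not say whether they share the same RNA.

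**Figure D3:**
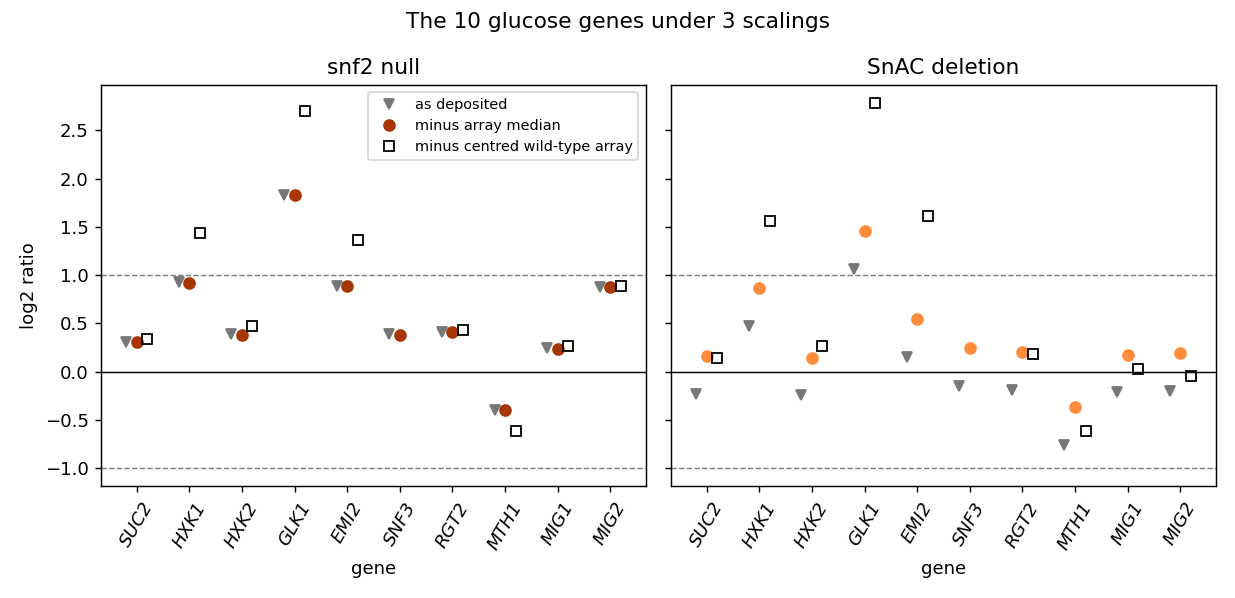
Log2 ratio (vertical axis) of the 10 genes (horizontal axis) in the null (left) and the SnAC deletion (right) as deposited, minus the array median, and minus the centred wild-type array; dashed lines mark 2-fold and SNF3 lacks the third symbol. Subtraction carries HXK1 and EMI2 past 2-fold in both mutants. In the SnAC deletion 7 of 10 genes lie below 0 as deposited, where the median of the whole array is -0.39, against 1 of 10 after centring.

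SUC2 (YIL162W) encodes invertase, the secreted enzyme that splits sucrose. Its values were 0.31 in the null, 0.16 in the SnAC deletion, -0.03 for BY4741 and 0.01 for Snf2-2FLAG. As deposited, the SnAC deletion value was -0.235, so its sign there rests on centring. In the null, where SUC2 was 1.24-fold above the median, 13.5% of features were higher, and in the SnAC deletion 23.5% were. Both wild-type values lay within 0.04 of the median, unlike those of GLK1. The values hold no signal level, so whether SUC2 was expressed in any of these cultures cannot be told from them, and a ratio near 0 does not show independence of Snf2.

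The glucose sensors differed little from each other. RGT2 (YDL138W), the sensor of high glucose, read 0.41 in the null, 0.21 in the SnAC deletion, -0.02 for BY4741 and 0.03 for Snf2-2FLAG. SNF3 (YDL194W), the sensor of low glucose, read 0.385 in the null and 0.25 without SnAC, and had no value on the wild-type arrays. SNF3 minus RGT2 was 0.04 in the SnAC deletion but -0.03 in the null, so their order was opposite in the mutants, by less than the median difference between probes of 1 gene on either array. As deposited both were below 0 in the SnAC deletion, at -0.145 for SNF3 and -0.185 for RGT2.

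MTH1 (YDR277C), which acts with Rgt1 to keep hexose transporter genes off when glucose is scarce, was the gene of this set below the median in both mutants. It read -0.40 in the null, -0.37 in the SnAC deletion, 0.22 for BY4741 and 0.25 for Snf2-2FLAG. Its mutant values were 1.32-fold and 1.29-fold below the median, with 8.22% and 5.08% of features lower. As for the kinases, the wild-type arrays lay on the other side, and after subtraction MTH1 stood at -0.62 in both mutants. Its paralog STD1 did not share this pattern in the mutants, at 0.05 in the null and 0.12 without SnAC.

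The repressors parted in the null. MIG1 (YGL035C), the zinc finger protein that silences SUC2 in glucose, read 0.24 in the null, 0.18 in the SnAC deletion, -0.03 for BY4741 and 0.15 for Snf2-2FLAG. MIG2 (YGL209W), a related repressor whose own gene is known to be induced by glucose, read 0.88 in the null, 0.19 in the SnAC deletion, -0.01 for BY4741 and 0.24 for Snf2-2FLAG. MIG2 was 1.83-fold above the median in the null, where 1.66% of features were higher, and it was level with MIG1 in the SnAC deletion. Unlike GLK1, HXK1 and EMI2, it kept nearly the same value in the null when the BY4741 array was subtracted, at 0.88, whereas its small value in the SnAC deletion turned to -0.05.

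The order of the 10 genes can be set against the disagreement between probes of the same gene, which covers error within an array but not the larger displacements seen on the wild-type arrays. In the null 29 genes had several probes, which differed by a median of 0.085 and by up to 0.361 in 90% of these genes. The corresponding values in the SnAC deletion were 0.135 and 0.298. In the null GLK1 exceeded the next gene by 0.91. HXK1, EMI2 and MIG2 followed with gaps of 0.04 and 0.01, then a gap of 0.46. RGT2, SNF3, HXK2, SUC2 and MIG1 came next with no gap over 0.08, and MTH1 lay 0.63 lower. In the SnAC deletion GLK1, HXK1 and EMI2 were separated by 0.59 and 0.32. EMI2 was 0.30 above SNF3, and the 6 genes from SNF3 down to HXK2 had no gap over 0.04. MTH1 was 0.52 below HXK2. Genes within such small gaps are not ordered by these data, and larger gaps exceed only the error within an array.

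Set against each other, the mutants placed all 10 genes on the same side of the median, 9 above and 1 below. Over all features 78.3% of 5790 were on the same side in both. Without centring 4 of 10 genes shared their sign, beside 3214 of 5790 features. After subtraction of the wild-type arrays MIG2 was on opposite sides, at 0.88 in the null but -0.05 in the SnAC deletion. The null exceeded the SnAC deletion by 0.37 for GLK1, 0.34 for EMI2, 0.235 for HXK2, 0.20 for RGT2, 0.15 for SUC2, 0.14 for SNF3, 0.06 for MIG1 and 0.05 for HXK1. For MTH1 the difference was -0.03. These 9 differences lay inside the central 95% of differences over all features, from -0.37 to 0.39. MIG2 lay outside, at 0.69 or 1.61-fold. No gene of the set differed by 2-fold between the mutants, where 0.311% of features did, and MIG2 was the 1 of 10 higher in the null by at least 1.5-fold, where 0.725% of features were. With each wild-type array subtracted first, the count past 2-fold was again 0, but the direction turned for GLK1 (-0.08), EMI2 (-0.25) and HXK1 (-0.13). With 1 array per mutant and a different wild type behind each, these differences were not tested.

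**Figure D4:**
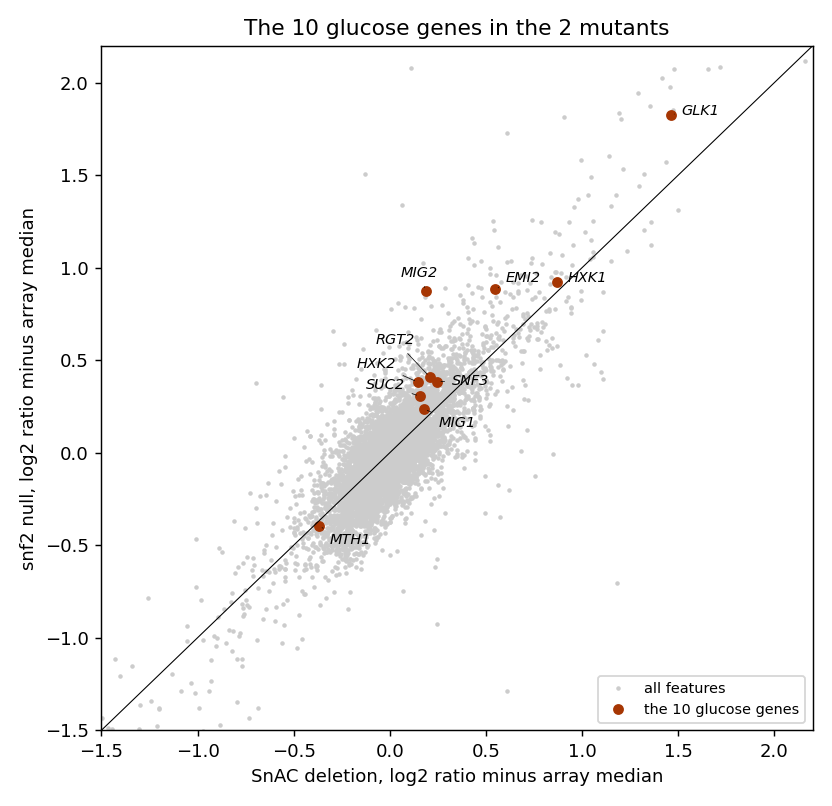
Log2 ratio minus array median in the SnAC deletion (horizontal axis) and in the null (vertical axis) for all features (grey) and the 10 genes (coloured, named), with the line of equal values; some features lie beyond the axis limits. GLK1 lies at the upper right near the line, MIG2 lies 0.69 above it, and MTH1 is below 0 on both axes.

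The named genes whose 4 values were closest to those of GLK1 were sought by Euclidean distance over the 4 arrays, among 4665 named genes measured on all of them. They were ALD4, the mitochondrial aldehyde dehydrogenase, at a distance of 0.757, TSL1, a subunit of the trehalose synthase complex, at 0.785, and APE1, a vacuolar aminopeptidase, at 0.848. ALD4 read 1.81 in the null, 1.20 in the SnAC deletion, -0.53 for BY4741 and -0.70 for Snf2-2FLAG. APE1 read 1.605, 1.14, -0.71 and -0.59 on the same arrays in that order. No other named gene lay within a distance of 1. The distance was computed over 4 values and carries no test.

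Lists of other genes of glucose signalling had medians near those of their arrays, and no gene of these lists passed the 2-fold rule. In the kinase complex of Snf1, which relieves repression by Mig1, and its regulators, 0 of 10 measured genes passed the 2-fold rule in either mutant, with medians of -0.03 (null) and -0.015 (SnAC deletion). In the Rgt1 arm 0 of 5 passed in either, with medians of 0.04 and 0.12. Among the corepressors Tup1 and Cyc8 and repressors related to Mig1, 0 of 5 passed in the null and 0 of 4 without SnAC, with medians of 0.05 and 0.165. Genes for galactose and maltose use, other targets of glucose repression, had 0 of 15 past the rule in the null and 0 of 13 without SnAC, with medians of 0.14 and 0.09. Of the cyclic AMP pathway, the further route by which glucose signals, 0 of 14 passed in either, with medians of 0.17 and 0.08. These counts are read beside the 2.85% of features past the rule in the null, and 2.05% without SnAC. As deposited, the medians of all 5 lists were below 0 in the SnAC deletion.

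Hexose transporters, the output of the sensors, had 0 of 6 measured genes past the rule in the null with a median of -0.27, and 1 of 7 in the SnAC deletion with a median of 0.57. Over all features 2.85% and 2.05% passed. The gene past the rule was HXT4, a high-affinity transporter, at 1.02. The list stood at medians of 0.35 in BY4741 and 0.535 in Snf2-2FLAG, so it did not have the wild-type pattern of GLK1.

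General stress and reserve carbohydrate genes, the company in which GLK1 and HXK1 are known to be induced by stress, did have it. Of 19 genes, 4 were higher in the null and 5 without SnAC, beside 1.26% and 0.866% of all features, and 0 were lower in either. Their medians were 0.39 and 0.69. On the wild-type arrays the medians were -0.39 in BY4741 and -0.34 in Snf2-2FLAG, with 2 of 18 and 3 of 17 lower by at least 2-fold, beside 0.0517% and 0.212% of all features. TSL1 read 2.12 in the null and 2.16 without SnAC, against -1.06 and -1.23 on the wild-type arrays. SOL4, a 6-phosphogluconolactonase, read 1.25 and 1.36, against -0.20 and -0.41. HSP12, a membrane-active stress protein, read 3.54 and 2.86, against -0.41 and 0.78. The list medians thus had the same signs as GLK1, HXK1 and EMI2 on all 4 arrays. Single genes departed from them on wild-type and mutant arrays, such as HSP12 in Snf2-2FLAG, and the lowest gene in the null was at -0.13. The signs of the medians alone do not set the stress list apart, since the cyclic AMP list shared them with smaller medians. Those were 0.17 (null) and 0.08 (without SnAC), against -0.08 and -0.12 on the wild-type arrays of BY4741 and Snf2-2FLAG. The part of stress in the values of the kinases was not tested.

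**Figure D5:**
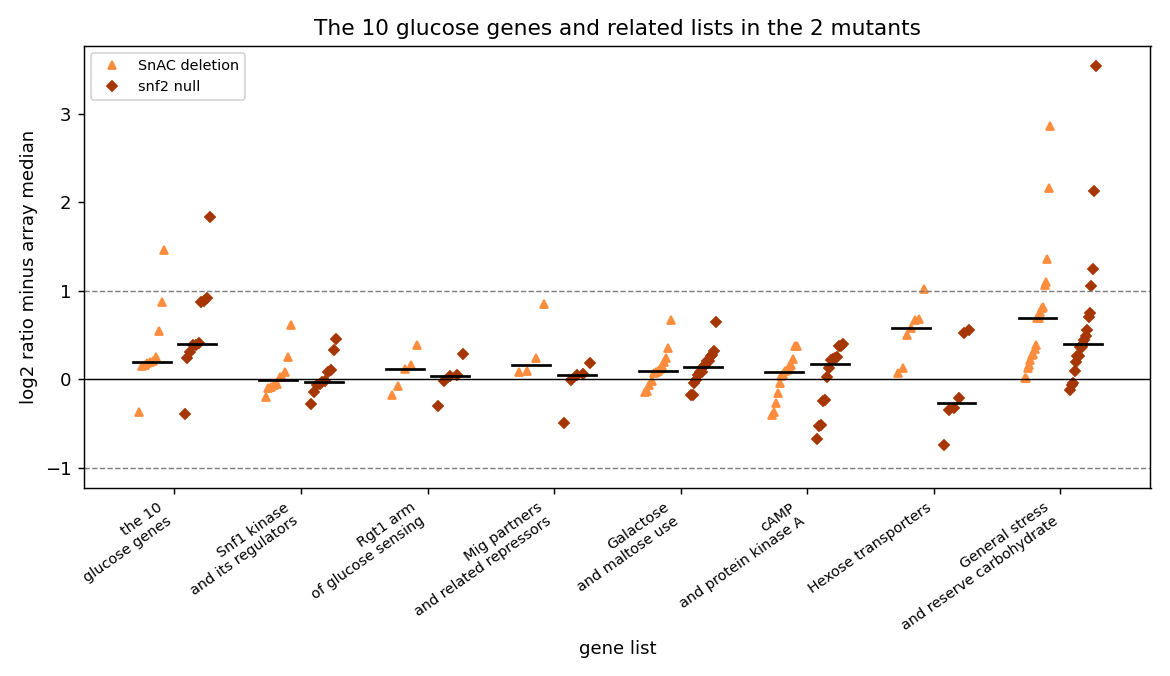
Log2 ratio minus array median (vertical axis) of the 10 genes and of 7 related gene lists (horizontal axis) in the SnAC deletion and the null, with 1 symbol per gene, a bar at each median and dashed lines at 2-fold. The medians of the 5 signalling and sugar lists lie between -0.03 and 0.17, while the stress list has medians of 0.69 and 0.39.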

How the data were processed

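Messenger RNA of 4 yeast samples was measured on 2-colour arrays, with 2 scans of opposite dye orientation per sample, per the labels. The deposited table holds 1 value per probe and sample, read as a log2 ratio of channel 1, the named strain, over channel 2, its wild type. The base, centring, background correction, filters, use of the spike-in transcripts and merging of the scans are not stated in the labels or the table.

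Each array was centred on the median of its probes. Of 6226 probes, 5578 had 1 gene name from the platform annotation, 648 had none and 0 had several, and 5573 matched the R64 gene table of RefSeq by gene identifier, which gave symbols and locus tags only. Probes of a gene were averaged, which concerned 30 genes and no gene of this set, and gave 6195 features. Probes without a value numbered 165 for the null, 307 for the SnAC deletion, 396 for BY4741 and 531 for Snf2-2FLAG. Precision is limited by there being 1 array per group, and no test was run.

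Named genes are the 10 of the set, SNF2, up to 3 genes of each of 7 lists past the size rule in a mutant, and the 3 nearest to each gene of the set past it. STD1 was added as the paralog of MTH1, and 7 genes in the closing section (NRG2, TOS3, MAL12, MIG3, RAS1, RAS2 and HXT3) were picked after their values were seen. The genes and lists were chosen with earlier results of these data known. A planned search of promoters for motifs was not run, as no sequences were at hand. Alternatives tried were no centring, centring on the mean, subtraction of the wild-type array, folds of 1.5 and 3, no bound from the wild-type array, and features on all 4 arrays. Calculations used Python 3.11.15, pandas 2.3.3 and numpy 2.4.6, with matplotlib 3.10.9. The rule was also run on shuffled wild-type values with added shifts of 1.5-fold and 3-fold. The same wild-type values set its bounds, so that run checks the code and does not measure errors in the mutants.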

Additional observations from a re-analysis of the deposited data

How the results depend on the processing

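GLK1 was the single gene past the rule in each mutant. It was also the single one as deposited, after centring on the mean and over features on all 4 arrays. Leaving out the bound from the wild-type array could not change a call at 2-fold, since both central ranges lie within 2-fold. Subtracting the wild-type array gave 3 genes in each mutant, GLK1, HXK1 and EMI2 in both. A 1.5-fold threshold gave 4 in the null and 2 without SnAC, where the wild-type bound raised the upper limit to 1.68-fold. A 3-fold threshold gave 1 and 0. Over all features, 27 were then higher and 48 lower in the null, and 12 and 32 without SnAC. On the wild-type arrays the count of 2 became 4 at 1.5-fold, and as deposited the 2 were GLK1 on both arrays. The shares of all features at these settings are not given here, so these counts have no background beside them. Between the mutants the count of 0 became 1, MIG2, at 1.5-fold and also as deposited, where the displaced median of the SnAC deletion adds to every difference. Beside it, 42 features were higher and 49 lower in the null than in the SnAC deletion at 1.5-fold. As deposited, at 2-fold, 38 were higher and 4 lower. Over all features of the SnAC deletion, 51 were higher and 70 lower after centring, against 20 and 145 as deposited. At 1.5-fold, 258 features were higher and 197 lower in the null, against 76 and 96 at 2-fold. No paired analysis was possible because each group held 1 sample, so no fit with the replicate number as a block exists. No signal level is given, so how far values stood above background is unknown.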

Other observations

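A few genes of the related lists had values in the mutants that those lists' medians do not show, all within 2-fold and picked after their values were seen. NRG2, a repressor of glucose-repressed genes, read 0.85 in the SnAC deletion but -0.005 in the null, with -0.01 and -0.11 in BY4741 and Snf2-2FLAG. TOS3, a kinase that activates Snf1, read 0.33 in the null and 0.61 without SnAC. MAL12, a maltase, read 0.65 and 0.67, against 0.09 and 0.03 on the wild-type arrays. MIG3, the third gene of the Mig family, read -0.50 in the null, opposite to MIG2, and had no value in the SnAC deletion.

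RAS1 and RAS2, which encode the small GTPases that stimulate adenylate cyclase, were below the median in both mutants. RAS2 read -0.67 in the null and -0.41 without SnAC, and RAS1 read -0.52 and -0.37. On the wild-type arrays RAS1 read 0.29 and 0.32, and RAS2 read -0.07 and -0.39, so the pair did not share their wild-type values. HXT3, a low-affinity transporter, read -0.75 in the null and 0.07 without SnAC, against 0.54 on both wild-type arrays. It differed by -0.815 between the mutants. The hexose transporter list also had a lower median in the null, at -0.27 against 0.57 without SnAC, so this direction is not particular to HXT3.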
